A study of Mus musculus with 16 samples.

Results

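Connexin genes of the cochlea were followed across 16 RNA libraries of mouse cochleae at postnatal day 4. The 8 genes Gjb1, Gjb2, Gjb6, Gja1, Gja4, Gja5, Gjc1 and Gjc3 were selected by symbol from 47729 genes with values, and all 8 passed the filter on low values. The GLAST-RiboTag mouse carries a tamoxifen-inducible Cre driven from the GLAST (Slc1a3) gene and an HA tag that Cre adds to the ribosomal protein Rpl22, so that an antibody to HA recovers ribosomes with their RNA from Cre-expressing cells. Controls had the genotype GLAST CreERT/+; Rpl22 HA/+. The damaged group, called DTR, had in addition 1 knock-in copy of the human diphtheria toxin (DT) receptor under the endogenous Lgr5 gene, which makes Lgr5+ supporting cells sensitive to DT. By the methods, all pups received tamoxifen and DT on postnatal day 1, whereas the sample labels state no treatment for controls. Input and ribosome IP of both genotypes gave 4 groups, with 4 libraries each. Each replicate pooled cochleae of several mice after removal of the spiral ganglion, lateral wall and Reissner's membrane, and 5% of the homogenate gave the input while 95% gave the IP.

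Connexins are the subunits of gap junctions, channels that join the cytoplasm of neighbouring cells and pass ions and small signalling molecules. In the cochlea, Gjb2 and Gjb6 encode the main connexins of the supporting cells and of the fibrocytes of the lateral wall, where gap junction networks are thought to carry potassium away from hair cells, and loss of GJB2 is a common cause of inherited deafness. Gjb1 and Gjc3 encode connexins of myelinating Schwann cells. Gja4 and Gja5 are known from endothelium, Gjc1 from smooth muscle and developing tissues, and Gja1 from mesenchyme, bone and many other tissues.

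The start regions of 4 genes are shown because these genes form the pairs whose levels the results below turn on, Gjb2 with Gjb6 and Gjc3 with Gjb1. Each is the RefSeq sequence (GRCm38.p6) from 250 bases before to 50 bases after a transcript start, read 5′ to 3′ on the strand of the gene. Capitals mark TATAAA (the letters of a TATA box), GGGCGG (a GC box) and ACAAAG (a SOX-type motif), or their reverse complements.
Gjb2, chr14:57104653-57104952, minus strand: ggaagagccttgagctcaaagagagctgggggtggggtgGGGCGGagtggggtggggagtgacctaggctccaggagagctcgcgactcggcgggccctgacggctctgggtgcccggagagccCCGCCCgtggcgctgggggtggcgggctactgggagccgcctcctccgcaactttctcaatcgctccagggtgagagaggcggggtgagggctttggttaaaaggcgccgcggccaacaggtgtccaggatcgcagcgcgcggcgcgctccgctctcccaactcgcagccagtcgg
Gjb6, chr14:57133562-57133861, minus strand: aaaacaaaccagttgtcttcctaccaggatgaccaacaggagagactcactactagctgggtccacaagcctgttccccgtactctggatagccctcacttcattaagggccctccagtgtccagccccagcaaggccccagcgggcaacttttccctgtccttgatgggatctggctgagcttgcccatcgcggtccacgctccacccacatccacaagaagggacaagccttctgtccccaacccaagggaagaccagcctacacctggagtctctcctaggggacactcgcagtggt
Gjc3, chr5:137963049-137963348, minus strand: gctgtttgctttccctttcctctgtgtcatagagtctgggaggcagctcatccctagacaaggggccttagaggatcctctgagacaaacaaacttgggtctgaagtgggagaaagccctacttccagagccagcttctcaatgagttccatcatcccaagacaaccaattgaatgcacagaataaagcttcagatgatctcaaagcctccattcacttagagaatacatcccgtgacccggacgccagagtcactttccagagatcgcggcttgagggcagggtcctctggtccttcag
Gjb1, the last of 4 starts, chrX:101383482-101383781, plus strand: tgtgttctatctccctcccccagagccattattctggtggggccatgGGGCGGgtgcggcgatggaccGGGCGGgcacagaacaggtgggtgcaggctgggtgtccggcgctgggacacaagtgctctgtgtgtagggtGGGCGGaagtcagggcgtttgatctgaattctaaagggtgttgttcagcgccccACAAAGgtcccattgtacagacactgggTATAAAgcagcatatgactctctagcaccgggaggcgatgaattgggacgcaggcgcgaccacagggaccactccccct

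The Gjb2 window held GGGCGG 211 bases upstream of the start and its reverse complement 126 bases upstream, with 70% G and C. No match lay in the windows of Gjb6 (57.3% G and C) and Gjc3 (50.7%). The Gjb1 window shown held TATAAA 29 bases upstream, ACAAAG 57 bases upstream and GGGCGG at 111, 182 and 203 bases upstream, with 60.0% G and C. The windows of the other Gjb1 starts held neither TATAAA nor GGGCGG, and that of the first start held ACAAAG 176 bases upstream. They had 43.3, 51.7 and 55.0% G and C. Of 32851 mouse start regions of the same length, 13.6% held TATAAA, 35.7% GGGCGG and 18.7% ACAAAG on either strand, and the median share of G and C was 52.7%. The motifs do not overlap each other, 7 of the 8 genes had an entry, and Gjc1 had none.

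Gjb2 (ENSMUSG00000046352, chr14:57098600-57104702) and Gjb6 (ENSMUSG00000040055, chr14:57123303-57133611) lie on the minus strand of chromosome 14 of GRCm38 (GENCODE M21), with 18600 bases between them. The other 6 genes are Gja4 (ENSMUSG00000050234, chr4:127311421-127314039), Gjb1 (ENSMUSG00000047797, chrX:101376378-101385629), Gjc3 (ENSMUSG00000056966, chr5:137953461-137963098), Gjc1 (ENSMUSG00000034520, chr11:102799579-102819700), Gja1 (ENSMUSG00000050953, chr10:56377330-56402513) and Gja5 (ENSMUSG00000057123, chr3:96904693-97077416). Gja5 is overlapped by other genes, antisense genes among them, and since the strand setting of the counting is not given in the sources used here, its low values are uncertain.

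Values are CPM, the reads of a gene scaled to a common total of reads counted on genes, of which the libraries had 28089836 to 41966310. A count of 3 reads, taken as the floor, came to 0.0715 to 0.107 CPM, which covers counting error only. Log2 fold changes (LFC) and adjusted p-values are those of limma on quantile-normalized values over 16994 genes, with a threshold of 0.05. Lgr5 fell after damage in input (63.3 ± 3.03 to 15.9 ± 3.69 CPM) and in IP (36.6 ± 3.99 to 9.38 ± 1.40 CPM, SD, n = 4), with adjusted p-values of 2.23e-08 and 3.47e-08. Slc1a3, which drives the Cre, was not higher in IP than in input, with LFCs of -0.20 in control (adjusted p = 0.102) and -0.27 in DTR cochleae (adjusted p = 0.0299). Supporting cell and greater epithelial ridge (GER) markers were abundant in every group, led by the tectorial membrane gene Tectb. Markers of hair cells, glia, vessels and mesenchyme were present too, so the libraries hold RNA of several cell types. Supporting cell and GER genes summed to 16562 to 23974 CPM in control input, and those of otic mesenchyme, cartilage and bone to 18167 to 21765 CPM. In the same order the sums were 23931 to 31649 and 11443 to 17157 CPM in control IP. They were 13940 to 19590 and 18059 to 21424.5 CPM in DTR input, and 16385 to 20247 and 16483 to 21476 CPM in DTR IP.

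Per kilobase of exon, Gjb2 was the most abundant of the 8 genes in every group and Gjb6 the next. In control input the mean levels in CPM per kb were 463 ± 41.1 for Gjb2, 67.5 ± 12.7 for Gjb6, 25.4 ± 6.43 for Gjc3, 9.03 ± 0.39 for Gjc1, 5.38 ± 1.47 for Gja4, 3.75 ± 0.73 for Gjb1, 1.65 ± 0.13 for Gja1 and 0.11 ± 0.035 for Gja5 (SD, n = 4). Only Gja4 and Gjb1 overlapped as neighbours in that order. The length is that of all annotated exons of a gene joined, 10.3 kb for Gja1 and 1.71 kb for Gjb1, and the order depends on it. In CPM without the length, Gja1 in control input (mean 16.9) lay above Gja4 (9.06) and Gjb1 (6.40). In control IP the order was Gjb2 at 673 ± 90.9, Gjb6 at 121 ± 25.8, Gjc1 at 15.1 ± 2.17, Gjc3 at 8.21 ± 2.22, Gja4 at 2.79 ± 0.70, Gjb1 at 1.28 ± 0.15, Gja1 at 1.24 ± 0.21 and Gja5 at 0.15 ± 0.022 CPM per kb, and the levels of Gjb1 and Gja1 overlapped. Gjc1 thus stood above Gjc3 in control IP and below it in control input. After damage, Gjc3 and Gjc1 overlapped in DTR input (13.7 ± 3.44 and 10.7 ± 0.24 CPM per kb), as did Gja1 and Gjb1 (1.95 ± 0.33 and 1.75 ± 0.30), whereas Gjc3 and Gja4 did in DTR IP (7.47 ± 1.90 and 4.33 ± 1.12). Gjb2 and Gjb6 together made up 89.9 to 93.6% of the summed level per kb of the 8 genes in control input and 95.3 to 97.6% in control IP. After damage their share was 91.1 to 92.6% in DTR input and 92.5 to 95.2% in DTR IP.

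**Figure D1:**
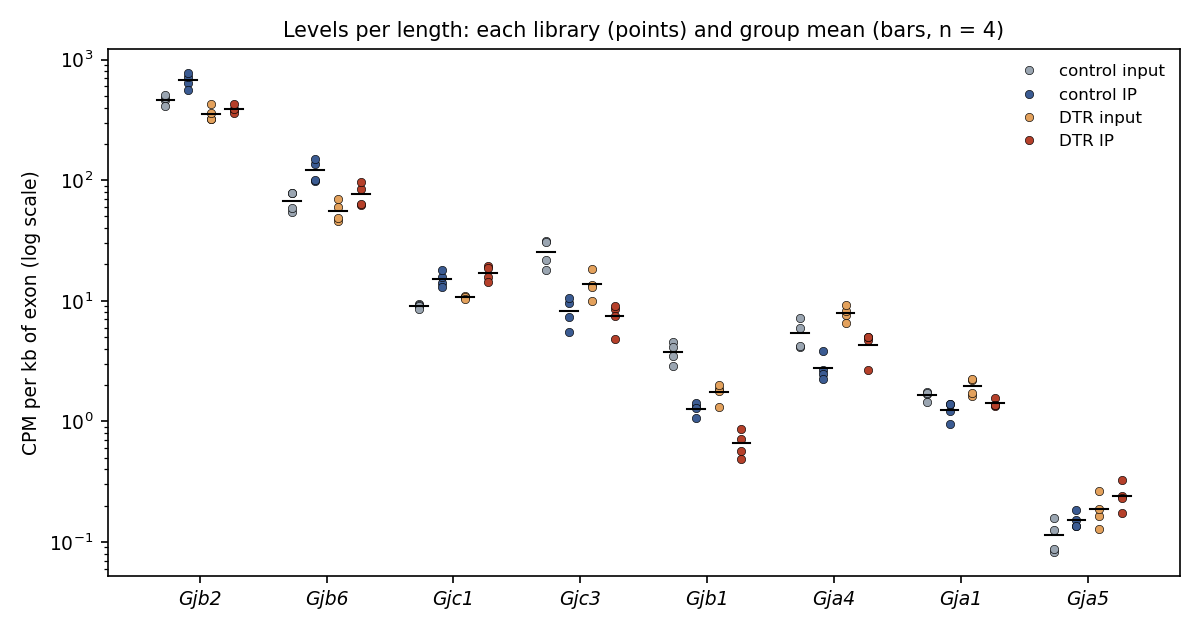
Level of each connexin gene in CPM per kb of exon on a log axis, with each library as a point, 4 points for each of the 4 groups, and a bar at the group mean. Gjb2 lies above Gjb6 and both lie above the other 6 genes in every group, while Gja5 is the lowest throughout.

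In control cochleae, Gjb2, Gjb6 and Gjc1 were higher in the ribosome IP than in the input, and Gjc3, Gjb1, Gja4 and Gja1 were lower. Of the 8 genes, 7 passed the test between control IP and control input, against 39.9% of all tested genes. The 3 higher genes stand beside 19.3% of tested genes, and the 4 lower ones beside 20.7%. With an absolute LFC of at least 1 as well, 2 passed, Gjb1 and Gjc3, against 10.5% of tested genes. The median LFC over the 8 genes was -0.05, beside -0.00 over all tested genes. For each of these 7 genes the 4 IP libraries did not overlap the 4 input libraries, which held for 17.2% of tested genes in the higher and 21.5% in the lower direction.

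In DTR cochleae, IP against input, 6 of 8 genes passed, against 39.2% of tested genes. Gjb6 and Gjc1 were higher (18.6% of tested genes were) and Gjb1, Gjc3, Gja4 and Gja1 were lower (20.5%). With an absolute LFC of at least 1 only Gjb1 passed, against 9.17% of tested genes. Gjc1 did not overlap between DTR IP and DTR input in the higher direction (16.7% of tested genes), and Gjb1, Gjc3, Gja4 and Gja1 did not in the lower (16.2%). The median LFC over the 8 genes was -0.11, beside -0.03 over all. After damage, 3 of 8 genes passed in IP, Gjb1, Gjb2 and Gjb6, against 15.7% of tested genes, and all 3 were lower (7.3% of tested genes were, and 8.44% were higher). In input, 3 of 8 passed, Gjb1, Gjb2 and Gjc3, against 12.4%, all lower (5.21% of tested genes were, and 7.17% were higher). With an absolute LFC of at least 1, none of the 8 passed in IP (4.45% of tested genes did) and Gjb1 did in input (4.07%). No connexin of the 8 passed as higher after damage by limma, edgeR or DESeq2, although at an unadjusted p under 0.05 Gja4 was higher in IP and Gja4 and Gjc1 were higher in input. The median LFC after damage was -0.03 in IP and -0.03 in input, beside -0.00 and -0.02 over all tested genes. DTR IP enters both the comparison with DTR input and that with control IP, and control IP and DTR input are likewise shared between comparisons, so their fold changes are not independent. In bulk RNA, fewer cells of a type and less RNA per cell cannot be told apart.

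**Figure D2:**
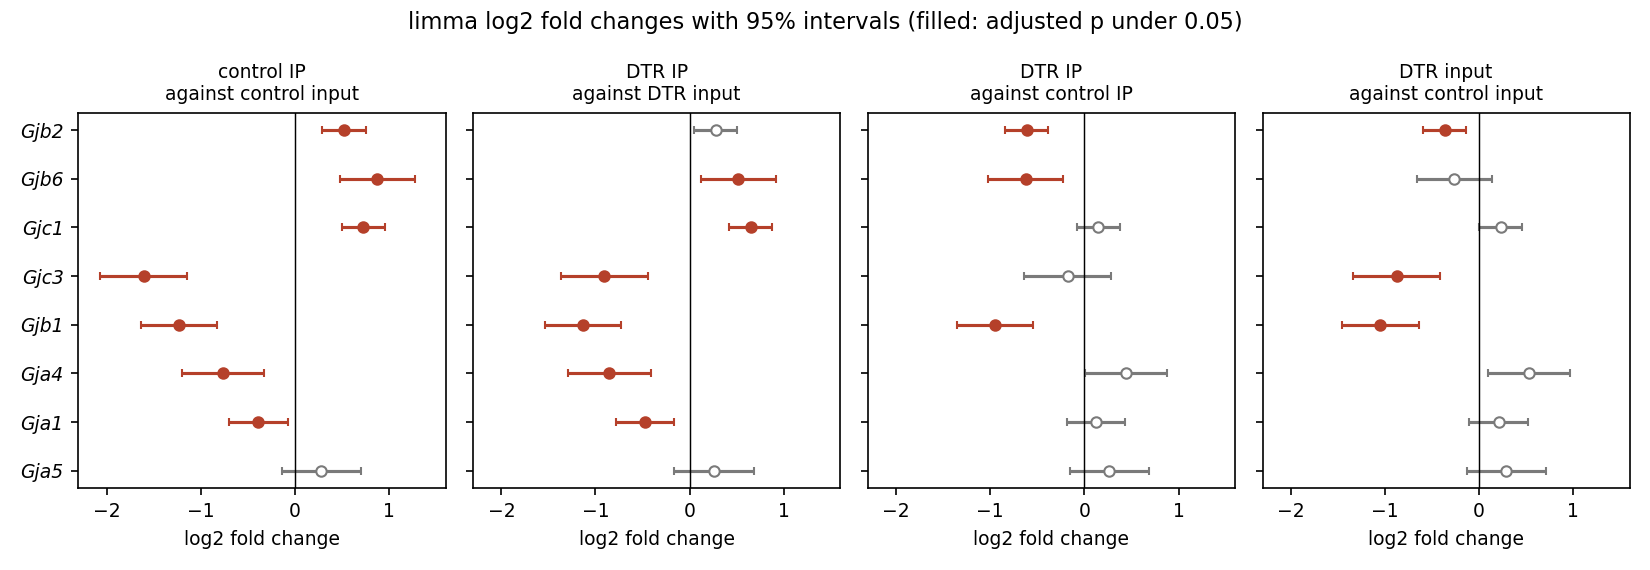
LFC of each connexin gene in the 4 comparisons, with bars for the 95% interval from limma over 16 libraries, and filled points for an adjusted p under 0.05. Gjb1, Gjc3, Gja4 and Gja1 lie left of 0 in both comparisons of IP with input. In the comparison of DTR IP with control IP, Gjb2, Gjb6 and Gjb1 lie left of 0 with filled points, and Gjc3 with an open point.

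Gjb2 was the connexin with the highest level and was lower after damage in both sample types. It was measured at 1104, 984, 1150 and 1219 CPM in control input replicates 1 to 4 and at 1541, 1355, 1725 and 1856 CPM in the matching control IP libraries. In damaged cochleae it was at 768, 778, 1023 and 867 CPM in DTR input and at 924, 864, 937 and 1021 CPM in DTR IP. All 4 control IP libraries lay above every other library, and the 4 DTR IP libraries lay within the range of DTR input. Gjb2 was higher in control IP than in control input by an LFC of 0.52 (95% interval 0.29 to 0.75, adjusted p = 0.000882), and the IP of each control pool was 1.38 to 1.52 times its input in CPM. In DTR cochleae that ratio was 0.92 to 1.2, above 1 in 3 of 4 pools, with an LFC of 0.28 (0.05 to 0.51, adjusted p = 0.0524) that missed the threshold and passed it with the pool as a replicate block (adjusted p = 0.0436). Without DTR input replicate 3 or control input replicate 4 it also passed (adjusted p = 0.0431 and 0.0454), and over 12 alternatives the LFC ranged from 0.09 to 0.29. In 9 of these 12 it missed the threshold, with adjusted p-values of up to 0.662. Mean CPM in DTR IP was 1.09 times that in DTR input.

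After damage, Gjb2 fell in IP by an LFC of -0.61 (-0.84 to -0.38, adjusted p = 0.000617), with mean CPM 42.2% lower. The LFC is from quantile-normalized values and the percentage from CPM without that step. Over 12 alternatives the LFC ranged from -0.87 to -0.61. The highest DTR IP library of Gjb2 lay below the lowest control IP library, a separation that held, in this direction, for 6.54% of tested genes. In input it was lower by an LFC of -0.37 (-0.60 to -0.14, adjusted p = 0.033), with mean CPM 22.9% lower, and there DTR replicate 3 lay within the control range. The change in input did not pass with edgeR (adjusted p = 0.0589), without quantile normalization (0.0528), with centring on the library median (0.103) or without the filter (0.0759). It also missed the threshold without control input replicates 1, 3 or 4 (adjusted p = 0.076, 0.0521 and 0.128) and without DTR input replicates 1 or 2 (0.108 and 0.105).

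Gjb6 followed a like course at a lower level. It was at 145, 158, 208 and 211 CPM in control input and at 263, 270, 363 and 402 CPM in control IP, then at 122, 129, 188 and 159 CPM in DTR input and at 167, 171, 228 and 260 CPM in DTR IP. In each of the 4 groups, replicates 3 and 4 lay above replicates 1 and 2. The IP of a pool was 1.71 to 1.91 times its input in control and 1.21 to 1.64 times its input in DTR cochleae. Gjb6 was higher in IP than in input in control cochleae (LFC 0.88, 0.48 to 1.27, adjusted p = 0.00114) and in DTR cochleae (LFC 0.52, 0.12 to 0.91, adjusted p = 0.0376). The latter missed the threshold with edgeR (adjusted p = 0.0764), DESeq2 (0.0553), centring on the library median (0.11), CPM without quantile normalization (0.0569), no filter (0.1) and removal of the length trend (0.0553). Without DTR input replicates 1 or 2 or DTR IP replicates 3 or 4 its adjusted p was 0.118, 0.104, 0.101 and 0.13.

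Gjb6 fell in IP after damage, by an LFC of -0.62 (-1.02 to -0.22, adjusted p = 0.031), with mean CPM 36.4% lower. Read by replicate number, DTR IP held 0.63 to 0.65 times the CPM of control IP in each of the 4 pairs, and the highest DTR IP library lay just below the lowest control IP library. In input the LFC was -0.26 (-0.66 to 0.13, adjusted p = 0.455), with ratios by number of 0.75 to 0.90, and it passed with the replicate number as a block (adjusted p = 0.038). The change in IP missed the threshold without the filter (adjusted p = 0.0836) and without control IP replicates 3 or 4 (0.0924 and 0.0928) or DTR IP replicates 1 or 2 (0.102 and 0.0905).

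Beside these changes, markers of supporting cells and the GER moved too. Of 15 such genes, 10 fell and 0 rose in IP by limma (12 changed at an unadjusted p under 0.05), with a median LFC of -1.2. In input 9 were lower and 2 higher, with a median LFC of -0.95. Their summed level was 23931 to 31649 CPM in control IP and 16385 to 20247 CPM in DTR IP, with Tectb as 60.2 and 50.7% of the mean sum. Between IP and input the 15 genes were mixed. In control cochleae 6 were higher and 4 lower in IP (median LFC 0.31), and in DTR cochleae 3 were higher and 2 lower (median LFC 0.02). Lfng, a modifier of Notch signalling, went from 279 to 16.8 CPM in IP (LFC -4.08, adjusted p = 1.18e-11), Fgfr3, a growth factor receptor of pillar and Deiters' cells, from 126 to 22.3 CPM (LFC -2.52, adjusted p = 1.54e-08), and Otog, a tectorial membrane gene, from 529 to 181 CPM (LFC -1.56, adjusted p = 7.29e-07). Other lists moved in the same comparison. Of 9 macrophage genes, 6 were higher and 0 lower by limma (6 unadjusted, median LFC 0.99), and their summed level was 20.7 to 30.6 CPM in control IP and 44.1 to 74.2 CPM in DTR IP. Of 14 tested genes of otic mesenchyme, cartilage and bone, 7 were higher and 0 lower (8 unadjusted, median LFC 0.41), with sums over 15 genes of 11443 to 17157 and 16483 to 21476 CPM. Of 12 hair cell genes 3 were higher and 1 lower. The part of these shifts in the Gjb2 and Gjb6 results was not tested. Of 12 genes of the lateral wall and stria, which also uses both connexins, 11 were tested, and 2 were higher and 3 lower in IP after damage. The sum over the 12 genes was 3150 to 5979 CPM in control IP and 4453 to 8745 CPM in DTR IP. Otos made up 74.3 and 81.0% of the mean sum, and the part of this shift was not tested either.

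**Figure D3:**
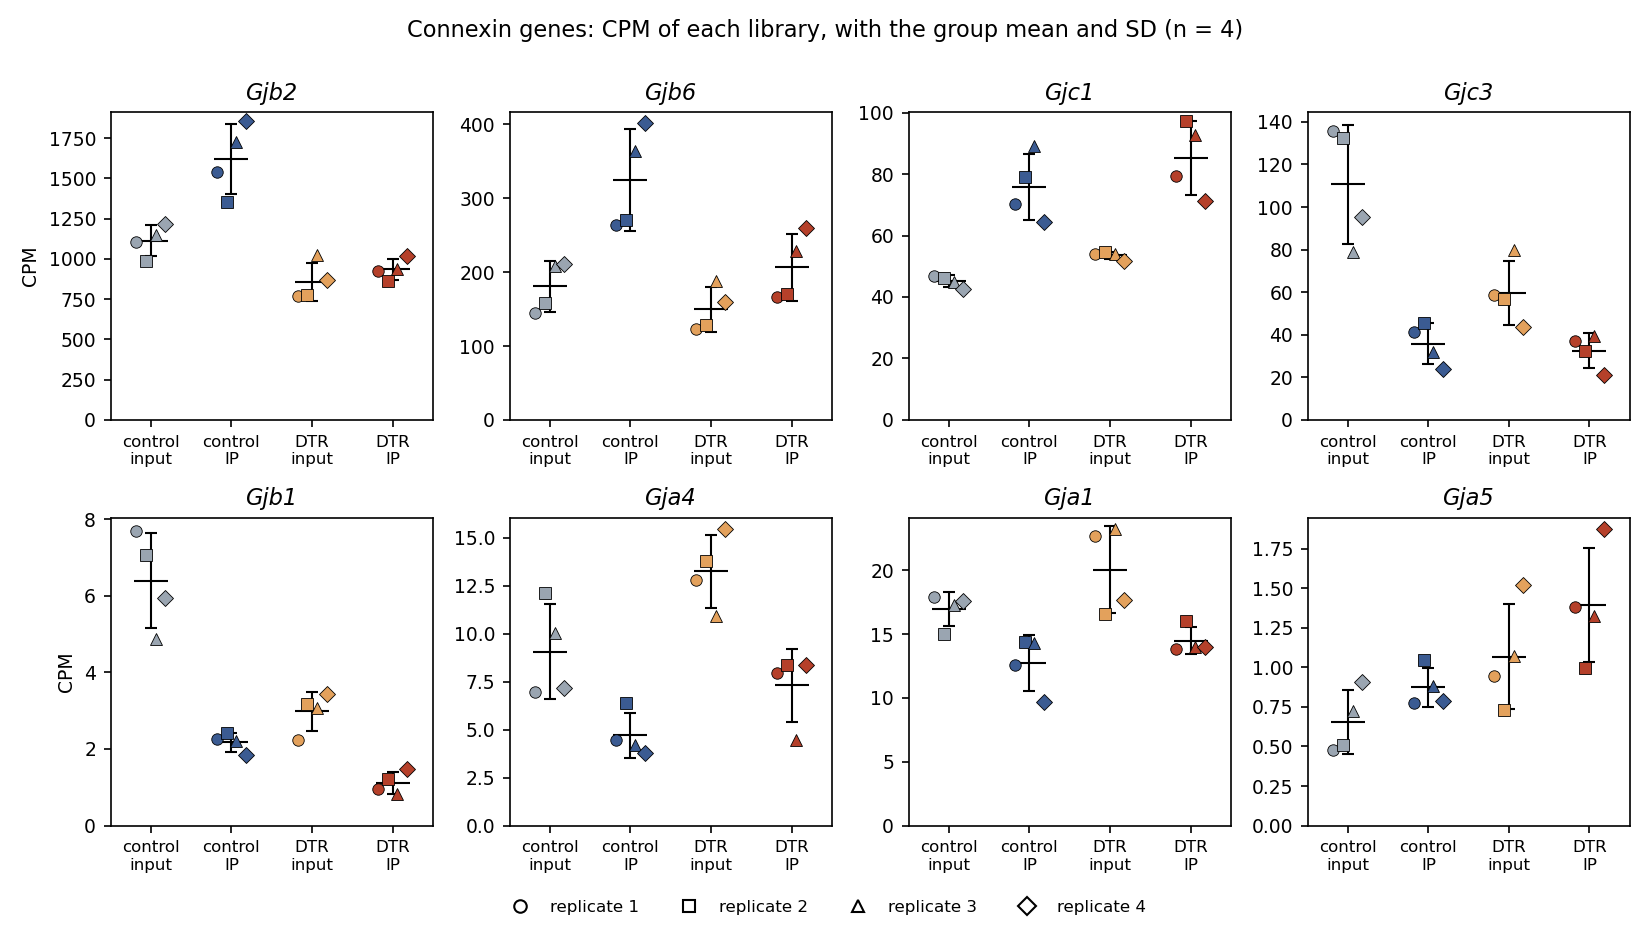
CPM of the 8 connexin genes in each library, with 4 replicates per group as different marker shapes and bars for the group mean and SD, each panel on its own axis from 0. Gjb2 and Gjb6 are highest in control IP, Gjb1 and Gjc3 are highest in control input, and Gja4 and Gja1 have their highest means in DTR input.

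The ratio of Gjb2 to Gjb6 was taken from CPM, where the scaling of a library to its total cancels. In control cochleae it was 7.60, 6.24, 5.52 and 5.78 in the inputs of replicates 1 to 4 and 5.85, 5.01, 4.75 and 4.61 in their IPs. In DTR cochleae it was 6.28, 6.03, 5.44 and 5.46 in the inputs and 5.53, 5.07, 4.11 and 3.92 in the IPs. Every pool had a lower ratio in its IP than in its input. The means were 6.28 ± 0.93 in input and 5.06 ± 0.56 in IP for control, and 5.80 ± 0.42 and 4.66 ± 0.77 for DTR cochleae (SD, n = 4). By exact permutation tests (two-sided, smallest possible p 0.0286), IP against input gave p = 0.0857 in control and p = 0.0857 in DTR cochleae (0.171 each after adjustment over 4 comparisons). The exact test of DTR against control gave p = 0.429 in IP and p = 0.429 in input (0.429 each after adjustment), and none of the 4 differences passed in these tests, which do not use the pools. On the log2 scale they were -0.31 and -0.33 for IP minus input, and -0.13 in IP and -0.11 in input for DTR minus control, and that in IP changed sign to 0.012 from quantile-normalized values. Within pools, IP minus input was -0.38 to -0.22 in control and -0.48 to -0.18 in DTR cochleae. The exact paired permutation test gave p = 0.125 in each genotype, the smallest that 4 pools allow. Over the 8 pools of both genotypes, a test added after the values were seen, the mean was -0.32 ± 0.10 (SD) and the exact paired permutation test gave p = 0.00781, the smallest that 8 pools allow. With all 8 differences already seen to be negative, p could only be the smallest. The test also takes the pools as independent, although same-numbered libraries of both genotypes deviated together (r from 0.291 to 0.559 across genes).

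**Figure D4:**
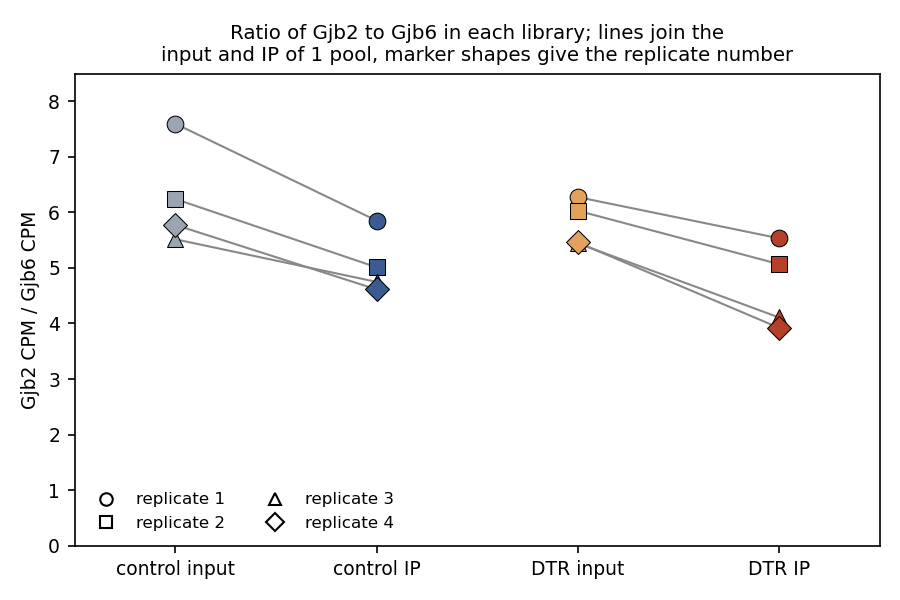
Ratio of Gjb2 to Gjb6 CPM in each of the 16 libraries, on an axis from 0, with a line joining the input and IP of 1 pool and marker shapes for the replicate number. All 8 lines run downward from input to IP, and the ranges of the groups overlap.

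Gjc1 was higher in IP than in input with and without damage. It was at 46.9, 46.3, 45.0 and 42.5 CPM in control input and at 70.2, 79.2, 89.3 and 64.5 CPM in control IP, an LFC of 0.73 (0.50 to 0.96, adjusted p = 3.37e-05). In DTR input it was at 53.8, 54.6, 54.0 and 51.9 CPM and in DTR IP at 79.4, 97.4, 92.7 and 71.3 CPM, an LFC of 0.65 (0.42 to 0.88, adjusted p = 0.000129). Input and IP did not overlap in either genotype. After damage the LFC was 0.15 in IP (-0.08 to 0.38, adjusted p = 0.407) and 0.23 in input (0.00 to 0.46, adjusted p = 0.212), and although all 4 DTR input libraries lay above the 4 control input libraries, as 11.6% of tested genes did, the change did not pass.

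Gjc3 and Gjb1, both known from myelinating glia, were the most depleted of the 8 in control IP. Gjc3 was at 136, 133, 78.8 and 95.6 CPM in control input and at 41.4, 45.6, 31.9 and 24.1 CPM in control IP, an LFC of -1.61 (-2.07 to -1.14, adjusted p = 1.35e-05). In DTR cochleae it was at 58.6, 56.7, 79.9 and 43.7 CPM in input and at 37.2, 32.5, 39.5 and 20.9 CPM in IP, an LFC of -0.91 (-1.37 to -0.44, adjusted p = 0.00316). Every IP library lay below its input, with a ratio of 0.25 to 0.41 in control and 0.48 to 0.64 in DTR pools. Gjc3 was lower in DTR input than in control input by an LFC of -0.87 (-1.34 to -0.41, adjusted p = 0.0119), with mean CPM 46.1% lower. Replicate 3 stood apart there, with DTR at 1.01 times the control of the same number where the other 3 pairs gave 0.43 to 0.46. In IP the LFC was -0.18 (-0.64 to 0.29, adjusted p = 0.659), and it was 0.01 without DTR IP replicate 4.

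The change of Gjc3 after damage differed between IP and input by 0.70 on the log2 scale (0.04 to 1.35, unadjusted p = 0.0379, adjusted p = 0.928). Among the 8 connexins 0 passed this test of the difference by limma, edgeR or DESeq2, against 0.0118% of tested genes by limma. With the replicate block and the length trend removed, 1 did, Gjc3 (LFC 0.72, adjusted p = 0.0499). For the other 7 genes the difference lay between -0.36 for Gjb6 and 0.10 for Gjb1, each with an interval that included 0, and that for Gjb2 was -0.24 (-0.57 to 0.08).

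Gjb1 was at 7.70, 7.07, 4.88 and 5.95 CPM in control input and at 2.27, 2.42, 2.20 and 1.83 CPM in control IP, an LFC of -1.23 (-1.64 to -0.83, adjusted p = 5.37e-05). After damage it was at 2.25, 3.17, 3.06 and 3.44 CPM in input and at 0.96, 1.21, 0.83 and 1.48 CPM in IP, an LFC of -1.13 (-1.54 to -0.73, adjusted p = 0.000147). These values rest on 202 to 323 reads per library in control input and 25 to 45 in DTR IP. Gjb1 fell after damage in both sample types, by an LFC of -1.05 in input (-1.45 to -0.64, adjusted p = 0.000892) and -0.95 in IP (-1.35 to -0.54, adjusted p = 0.00198), with no overlap between DTR and control libraries in either, as for 7.73 and 6.54% of tested genes in this direction. Gjb1 was the only one of the 8 genes to pass in all 4 comparisons.

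Myelin genes moved beside Gjc3 and Gjb1. Of 14 genes of myelinating glia, which include neither connexin, 12 were lower and 0 higher in control IP than in control input (12 changed at an unadjusted p under 0.05), with a median LFC of -1.91, and 12 were lower and 0 higher in DTR IP than in DTR input (13 unadjusted), with a median LFC of -1.32. After damage, 10 were lower and 0 higher in input (12 unadjusted, median LFC -0.86), and 4 were lower and 0 higher in IP (8 unadjusted, median LFC -0.35). Mbp, a main protein of compact myelin, went from 1339 to 502 CPM in input (LFC -1.37, adjusted p = 0.000771) and from 355 to 177 CPM in IP (LFC -0.97, adjusted p = 0.0112). The summed level of the 14 genes ranged from 3359 to 5739 CPM in control input and from 1012 to 1558 CPM in control IP. In damaged cochleae it ranged from 1738 to 2584 CPM in input and from 752 to 999 CPM in IP, and none of the genes was at 0 in all libraries. As a share of that sum, Gjc3 came to 2.42 ± 0.076% and 2.79 ± 0.36% in control input and IP, and to 2.80 ± 0.51% and 3.68 ± 0.81% in DTR input and IP (SD, n = 4). The share of Gjb1 was 0.14 ± 0.010% and 0.18 ± 0.031% in control input and IP, and 0.14 ± 0.037% and 0.13 ± 0.045% in DTR input and IP. In IP after damage the LFC of Gjb1 was -0.95, beside -0.18 for Gjc3 and the median of -0.35 for the 14 genes. By replicate 1 to 4, the 14 genes summed to 5739, 5313, 3359 and 3856 CPM in control input, and 10 neuron genes to 1104, 1012, 449 and 404 CPM. In DTR input the sums were 2125, 1738, 2584 and 2073 CPM, and 892, 593, 348 and 206 CPM for the neuron genes. The part of myelinating cells, or of nerve tissue left in the pools, in these results was not tested.

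**Figure D5:**
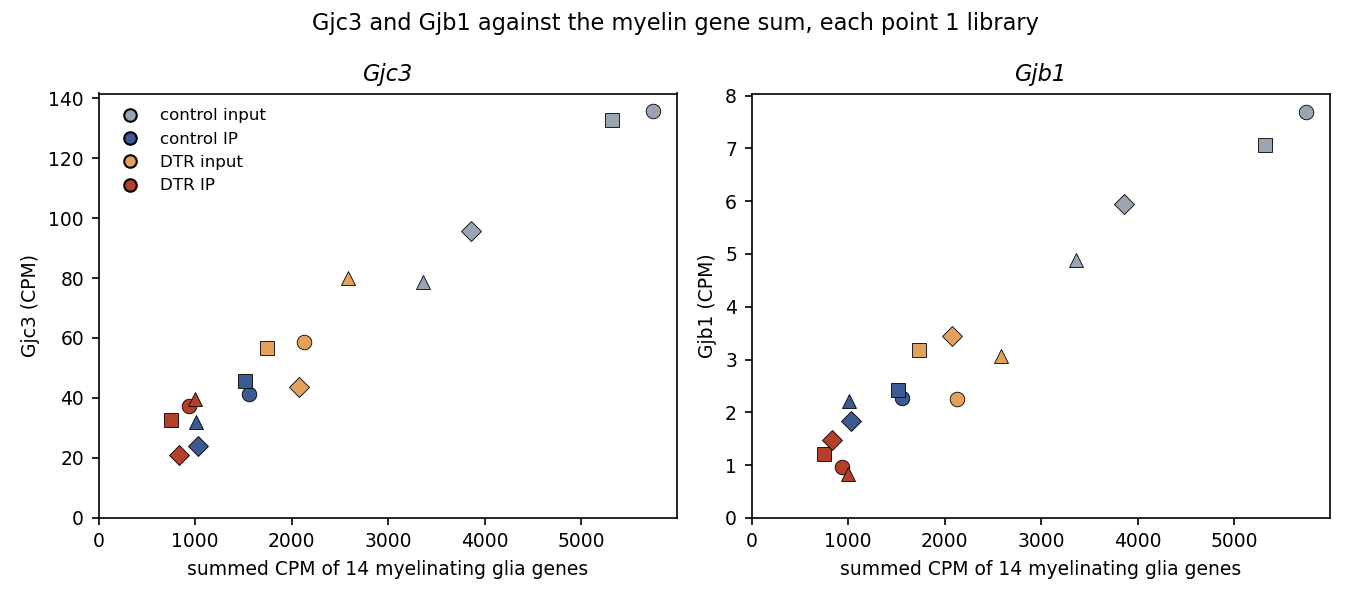
CPM of Gjc3 and of Gjb1 against the summed CPM of 14 myelinating glia genes, both axes from 0, each point 1 library, with colours for the 4 groups and marker shapes for the replicate number (circle 1, square 2, triangle 3, diamond 4). The control input libraries lie at the upper right with sums of 3359 to 5739 CPM, and the IP libraries of both genotypes lie at the lower left below 1600.

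Gja4, known from arterial endothelium, was lower in IP than in input in both genotypes. It was at 6.93, 12.1, 10 and 7.17 CPM in control input and at 4.46, 6.40, 4.17 and 3.76 CPM in control IP, an LFC of -0.76 (-1.20 to -0.33, adjusted p = 0.0069). In DTR cochleae it was at 12.8, 13.8, 10.9 and 15.4 CPM in input and at 7.97, 8.37, 4.47 and 8.38 CPM in IP, an LFC of -0.85 (-1.29 to -0.41, adjusted p = 0.00334). Mean CPM was higher after damage, 1.46 times in input and 1.55 times in IP, with control and DTR libraries overlapping in both. The LFCs of 0.53 in input (0.09 to 0.97, adjusted p = 0.12) and 0.44 in IP (0.00 to 0.88, adjusted p = 0.174) did not pass. DTR IP replicate 3 lay far below the other DTR IP libraries, and without it the LFC in IP was 0.64 (adjusted p = 0.0309).

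Gja5, another endothelial connexin, was near the filter, with 0.48 to 0.91 CPM in control input and 0.78 to 1.05 CPM in control IP, from 18 to 36 reads per library. In damaged cochleae it was at 0.73 to 1.52 CPM in input and 1.00 to 1.87 CPM in IP, from 24 to 57 reads. Its LFC lay between 0.26 and 0.29 in all 4 comparisons, with adjusted p-values by limma of 0.29 to 0.435. At this level the added 0.5 CPM lowers the LFC, and mean CPM was 1.6 times as high after damage in IP and 1.63 times in input. Over 11 alternatives the LFC after damage was at most 0.61 in IP (DESeq2 on reads) and 0.69 in input (edgeR on reads), and the lowest adjusted p was 0.129 in IP and 0.159 in input. Of 14 endothelial genes, 11 were lower and 0 higher in IP than in input in control cochleae (12 unadjusted), and 11 were lower and 0 higher in DTR cochleae (12 unadjusted). After damage 3 were higher and 0 lower in IP (3 unadjusted), and 1 was higher and 0 lower in input (2 unadjusted). Their summed level was 593 to 685 CPM in control input and 269 to 335 CPM in control IP. In damaged cochleae it was 662 to 882 CPM in input and 351 to 419 CPM in IP. Emcn, a surface sialomucin of endothelium, went from 66.2 to 105 CPM in IP after damage (LFC 0.65, adjusted p = 6.98e-05) and from 172 to 265 CPM in input (LFC 0.62, adjusted p = 0.00015). Of 10 mural cell genes, 9 were tested, and 7 were lower in control IP and 6 in DTR IP than in input. The part of vascular cells in the Gja4 values was not tested.

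Gja1 was slightly lower in IP than in input. It was at 15 to 17.9 CPM in control input and 9.68 to 14.4 in control IP, an LFC of -0.39 (-0.70 to -0.08, adjusted p = 0.0437). In DTR cochleae it was at 16.6 to 23.2 CPM in input and 13.8 to 16.1 in IP, an LFC of -0.47 (-0.78 to -0.16, adjusted p = 0.0165). Input and IP did not overlap in either genotype, a state that 16.2% of tested genes reached in this direction in DTR cochleae. After damage the LFC was 0.21 in input (-0.10 to 0.52, adjusted p = 0.447) and 0.12 in IP (-0.19 to 0.43, adjusted p = 0.639). The control difference was lost with edgeR (adjusted p = 0.0661), without the filter (0.0565), with the length trend removed (0.194), and without control input replicates 1, 3 or 4 (0.102, 0.0939 and 0.0954) or control IP replicates 1, 2 or 4 (0.0888, 0.0545 and 0.124). The DTR difference was lost without DTR input replicates 1 or 3 (0.0527 and 0.0651). Of 15 genes of otic mesenchyme, cartilage and bone, 14 were tested, and 8 were lower and 2 higher in control IP than in input, and 2 lower and 3 higher in DTR IP than in input. After damage 7 were higher and 0 lower in IP, as given above, and 2 were higher and 0 lower in input by limma (3 unadjusted, median LFC 0.16). The part of these cells in the Gja1 values was not tested.

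Of connexin genes outside the 8, Gje1 had 0 reads in all 16 libraries. Gja3, the neighbour of Gjb2 on chromosome 14, stayed between 0.60 and 1.55 CPM and passed in no comparison. Gjd2, a neuronal connexin, reached 5.65 CPM in 1 control input library and was under 2.6 CPM on average in every group.

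Of the pannexins, which form related channels, Panx1 was at 20.3 to 34.5 CPM over all libraries and passed in no comparison. Panx2 was higher in IP than in input in control (7.5 ± 2.41 and 4.12 ± 1.31 CPM, LFC 0.88, adjusted p = 0.0016) and DTR cochleae (5.29 ± 1.05 and 2.87 ± 0.17 CPM, LFC 0.82, adjusted p = 0.00292). Of 11 genes for connexin partners and trafficking, 8 were lower and 0 higher in IP than in input in control cochleae (8 unadjusted), and 8 lower and 0 higher in DTR cochleae (9 unadjusted). Tjp1, the scaffold that binds connexin tails, went from 108 CPM in control input to 38.4 in control IP (LFC -1.48, adjusted p = 6.84e-08) and from 106 CPM in DTR input to 53.7 in DTR IP (LFC -0.99, adjusted p = 9.62e-06). Caveolin gene Cav1 went from 156 to 47.3 CPM (LFC -1.72, adjusted p = 5.18e-08) and from 109 to 37.2 CPM (LFC -1.57, adjusted p = 1.95e-07). After damage, Cdh2, the N-cadherin gene of adherens junctions, fell in IP from 99.6 to 37.2 CPM (LFC -1.52, adjusted p = 9.43e-06) and in input from 104 to 58.6 CPM (LFC -0.83, adjusted p = 0.00457), while Tjp1 rose in IP (LFC 0.45, adjusted p = 0.0218).

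For each connexin the 3 tested genes with the most similar course over the 16 libraries were found by Pearson's r of log2 values, as a description over libraries that share pools and groups. For Gjb2 they were B3galt2 (r = 0.95), Nfe2 and Car8, and for Gjb6 Galk1 (r = 0.96), Rab19 and Glmp, while the r of Gjb2 with Gjb6 was 0.84. For Gjc3 they were the myelin genes Pmp22 (r = 0.97) and Mal, and Gulp1, and for Gjb1 Abat (r = 0.98), Hacd3 and Fer1l6, while Gjc3 and Gjb1 had an r of 0.80. For Gjc1 they were Eif1ad (r = 0.98), F3 and Ldb2, for Gja4 Prrc1 (r = 0.93), Endov and Tnpo2, for Gja1 Rspo2 (r = 0.90), Pdgfc and Gm15663, and for Gja5 Irf9 (r = 0.92), Rapgef3 and 1700018A04Rik. Gjb2 and Gja4 ran opposite to each other over the libraries (r = -0.84), as did Gjc1 and Gjb1 (r = -0.83).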

How the data were processed

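RNA-seq was performed on input and IP RNA from pools of P4 cochleae, 16 libraries in 4 groups taken from the sample titles. Libraries were made with SMART-Seq v4, which does not mark strand. The deposited values are CPM, which the authors made from reads aligned to GRCm38 with HISAT2 and counted with HTSeq by the paper's methods, whereas the submitters' processing notes name TopHat. Neither the gene annotation release nor the counting strand is given in the sources used here. All CPM above 0 were whole multiples of the value of 1 read (tolerance 0.02), so whole reads were recovered for the count tools. Counted reads were 28089836 to 41966310 per library. Of 50316 genes listed, 2587 were NA in every library and 173 had no name.

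Quantile normalization across libraries was applied to CPM, and log2 values were taken after adding 0.5, so that fold changes of low genes are understated. The 16994 genes that reached 0.5 CPM in every replicate of 1 or more groups were tested. Group means were compared over all 16 libraries with limma 3.58.1 (R 4.3.3, two-sided, Benjamini-Hochberg over all tested genes). The Gjb2 to Gjb6 ratio was compared with exact permutation tests (SciPy 1.17.1). All 8 connexins are reported in every comparison, of each gene list up to 3 genes with the largest absolute LFC among those that passed, and every other connexin or pannexin past the filter. Some genes that this rule names are not reported here. The members, gene lists and comparisons were chosen with earlier results of these data known. Exon lengths and positions came from GENCODE M21 and promoters from RefSeq.

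Inputs and IPs of 1 number come from the same homogenate. Replicate 4 of every group carries a different number in the header of its file than in its title, the same one in all 4 groups, and the title was used. Deviations from group means correlated between same-numbered libraries in all 4 comparisons (r from 0.288 to 0.559 across genes). The numbers thus link libraries across all 4 groups, also between control and DTR cochleae, which come from different mice. The mean r for other numbers (-0.119 to -0.135) is fixed by that for same numbers through the centring on group means. Alternatives were no quantile normalization, centring on the library median, pseudocounts of 0.1 and 1, no filter, a minimum of 2 CPM, only the groups compared, edgeR 4.0.16 and DESeq2 1.42.0 on recovered reads, removal of a length trend, the replicate block with and without it, and each library left out. The fitting steps were checked on simulated tables with known changes. For control IP against control input, 17.5% of changes with an absolute LFC of 0.5 were recovered, 74.6% at 1 and 96.1% at 2. For DTR IP against control IP the shares were 10.5, 71.6 and 98.7%. In these simulations, changes of 0.5 were thus mostly missed. Only 57, 67 and 76 of 16994 genes were given changes of 0.5, 1 and 2, and libraries were drawn independently. In the real comparisons 39.9 and 15.7% of genes passed, which makes the adjustment of p less strict. The simulated shares are thus not the sensitivity of the real comparisons. The replicates are pools, and the main limma fit used no replicate block. Its p-values thus rest on the spread of single libraries within the 4 groups. Input and IP of 1 pool, and same-numbered libraries of both genotypes, are taken as independent.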

Additional observations from a re-analysis of the deposited data

Results flagged for a closer look

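In DTR IP, replicate 2 of Gja1 was at 16.1 CPM where the other 3 libraries were at 13.8 to 14 CPM. Its gap to the nearest of them was 0.92 of the range of the group, above the 95% critical value of Dixon's test for 4 samples. Replicate 3 of Gja4 in DTR IP was at 4.47 CPM where the others were at 7.97 to 8.38 CPM, a gap of 0.89 of the range. In all, 36 groups of 4 libraries were examined, and chance flags about 1 in 20 groups.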

How the results depend on the processing

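Of the LFCs of single connexins under all alternatives, 1042 kept their direction and side of the threshold, 36 lost the threshold, 9 gained it and 20 changed sign. The count of connexins that passed stayed within 1.5 times its value in 138 cases and changed in 1, the difference between IP and input in the change after damage, where 1 gene (Gjc3) passed in place of 0 with the replicate block and the length trend removed. With the replicate block alone the counts were 7, 7, 3, 4 and 0 in place of 7, 6, 3, 3 and 0, as Gjb2 (DTR IP against DTR input) and Gjb6 (DTR input against control input) passed, and it changed no other call. The sign changes were small. For Gjc3 in DTR IP against control IP the LFC without single libraries ranged from -0.31 to 0.0092. The rest were in the difference between IP and input in the change after damage. There Gjb1 was at -0.042 with a pseudocount of 0.1 and from -0.032 to 0.20 without single libraries, Gja1 from -0.17 to 0.011, Gja4 from -0.21 to 0.11, Gja5 from -0.17 to 0.11 and Gjc1 from -0.14 to 0.0041. Gja4 was at 0.023 without quantile normalization, 0.030 with edgeR and 0.053 with DESeq2, and Gja5 at 0.014 without quantile normalization. The log2 Gjb2 to Gjb6 ratio, DTR IP minus control IP, was 0.012 in place of -0.13 from quantile-normalized values. Its IP minus input difference passed only when the 8 pools of both genotypes were paired together (-0.32, added after seeing the data), which uses more pairs and takes the pools as independent. The causes were not tested. Depth limits Gja5 and Gjb1 most, with 18 to 57 and 25 to 323 reads per library.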
